A study of Arabidopsis thaliana with 8 samples.

Results

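Seedlings of the Arabidopsis mutant ada2b were compared with wild type Col-0 seedlings by RNA sequencing of whole plants. The comparison holds 4 libraries, 2 of genotype ada2b-/- and 2 of wild type Col-0, all from 12-day-old seedlings kept on Murashige and Skoog plates at 22 °C with 16 h of light and 8 h of dark. The labels give neither the allele nor the accession in which it arose, and do not tell whether replicates were grown separately. The p-values therefore measure only spread among these samples, part of which may be technical. The series also holds 2 libraries of hag1-/- seedlings, which are used below, and 2 of scs1 scs2a seedlings. The latter enter the shared estimate of the spread and checks of libraries and replicates, and are not compared with ada2b. Genes were taken as members of the comparison if their normalised count was 10 or more in at least 2 of the 4 libraries, which gave 21571 of the 32548 genes in the table. The genes nearest to this limit were AT3G04155 just inside it, at 10.01 and 1.902 in ada2b and 8.743 and 10.64 in Col-0, and GLYI8 just outside it, at 2.002 and 0.965 in ada2b and 9.982 and 20.11 in Col-0.

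SAGA is a transcriptional coactivator complex that is recruited to promoters by DNA-bound activators. Its acetyltransferase module adds acetyl groups to histone H3, and consists of the acetyltransferase GCN5, called HAG1 in Arabidopsis, with an ADA2 adaptor, ADA3 and SGF29. ADA2B is the adaptor that binds HAG1 and raises its activity on nucleosomes, and Arabidopsis plants that lack it are known as dwarfs with small leaves and altered responses to auxin, cytokinin and cold. The comparison asks which transcripts differ in seedlings mutant for this adaptor.

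The gene ADA2B (AT4G16420) itself stood at 567 and 613 normalised counts in ada2b and at 708 and 711 in Col-0, a log2 fold change of -0.27 ± 0.07 (SE, limma adjusted p = 0.0136). Both mutant libraries lay below both wild type libraries, but by a small margin, and the call ended without ada2b replicate 1 (adjusted p = 0.0886), Col-0 replicate 1 (0.0516) or Col-0 replicate 2 (0.0567). Transcript from a disrupted gene can persist, so this value is a weak check of the label. The other genes of the module were higher in ada2b. HAG1 (AT3G54610) stood at 394 and 436 in ada2b, against 296 and 328 in Col-0 (log2 fold change 0.41 ± 0.09, adjusted p = 0.00598). SGF29A (AT3G27460), which reads methylated histone H3, stood at 273 and 311 in ada2b and 204 and 182 in Col-0 (0.60 ± 0.10, adjusted p = 0.00195). ADA2A, the second adaptor of the plant, stood at 287 and 323 in ada2b and 262 and 245 in Col-0 (0.26 ± 0.09, adjusted p = 0.0395), and this call ended when any of 3 of the 4 libraries was left out, and under both rescalings of the libraries (adjusted p = 0.0681 without Col-0 replicate 1, 0.176 without Col-0 replicate 2 and 0.215 without ada2b replicate 2). Of the 6 genes of the module, 5 were called higher, against 28.7% of all members, and the 5 became 2 without Col-0 replicate 1.

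Libraries were even in size, with totals of 20570967 to 22344725 normalised counts over the 8 libraries, and the top 10 genes held 4.51 to 5.59% of the total. Replicates of ada2b differed by a median of 0.107 on the log2 scale and replicates of Col-0 by 0.105. Both leaf and root transcripts were found, as whole seedlings should give. RCA, the activase of rubisco, reached 132072 and 135181 in ada2b and 137389 and 133802 in Col-0, and the root beta-glucosidase PYK10 stood at 50809 and 48402 in ada2b and 43806 and 42260 in Col-0. The 6 seed storage and oil body genes summed to at most 5.32 normalised counts in any of these 4 libraries, and 4 of them in ada2b and 3 in Col-0 were under 1 in both libraries. The 16 root markers summed to 55547 and 52539 in ada2b and to 47522 and 46326 in Col-0. Of them 4 were called higher, no more than the 28.7% of all members, and 12 were not called, and the 4 calls fell to 0 without ada2b replicate 1 or Col-0 replicate 1. None of the 16 was under 1 in both libraries of either genotype. The part of this difference in the results below was not tested.

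In the main fit 54% of members were called, and large changes were mostly falls. Among members 6195 were called higher in ada2b (28.7%) and 5459 lower (25.3%) at a limma adjusted p under 0.05. With no filter on low values 5220 were higher and 4600 lower, so the share called depends on the fit. With a change of at least 2-fold in the main fit, 558 were higher (2.59%) and 2433 lower (11.3%). The libraries of the 2 genotypes overlapped in none of these, but they did not overlap in 80% of all members either. The median log2 fold change over members was 0.07, and median-ratio scaling moved it to -0.006. Under that scaling 4734 members were higher and 6185 lower, so small changes depend on the scaling while the excess of falls of at least 2-fold does not (460 higher and 2609 lower). Falls were most frequent among low genes. Among the 25% of members with the lowest levels 24.9% fell by 2-fold or more and 4.69% rose as much, and among the 25% with the highest levels 4.02% fell and 2.08% rose. Of all members, 563 passed the limit of 10 through both Col-0 libraries alone and 123 through both ada2b libraries alone. Genes of these 2 kinds had to differ, and 511 of the 563 were called lower and 86 of the 123 higher. Their part in the excess of falls and in the shares by level was not tested. Among the genes named below, those of these kinds were CYP707A2, CYP707A4, PPT2, MBP2, GRF7, WOX5, RGL3, BR6OX1, ACS2, ACS4, HAI2 and MYB76. TRY, ETC1, AT1G31690, AT4G33720, AT1G08757 and those under 1 in 1 genotype were of these kinds as well.

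**Figure D1:**
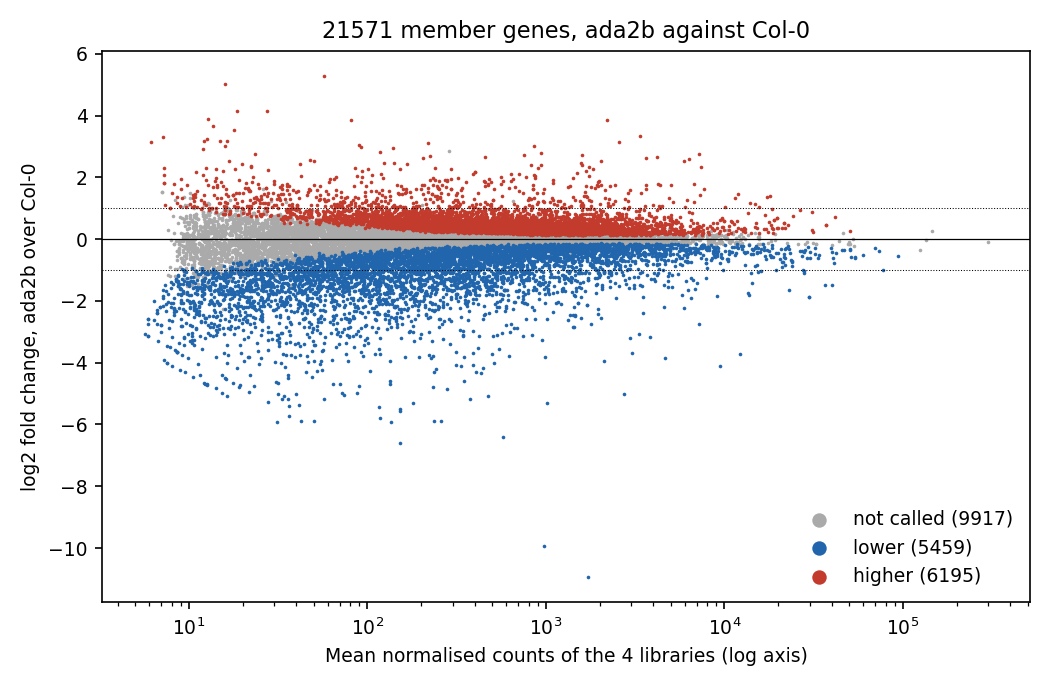
Each point is 1 of the 21571 member genes, with the mean normalised count of the 4 libraries on the x axis (log scale) and the log2 fold change of ada2b over Col-0 on the y axis. Red points were called higher (6195), blue points lower (5459) and grey points neither, and dotted lines mark a 2-fold change; blue points reach much further from the centre than red ones.

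Large changes were spread over the genome and were more frequent in short genes and genes without introns. By the TAIR10.1 annotation, falls of at least 2-fold made up 10.3 to 12.2% of members on each of the 5 chromosomes and rises 2.06 to 2.91%. Of 3858 members without an intron, 14.5% fell and 4.56% rose by 2-fold or more, against 10.6% and 2.16% of 17713 members with introns. Among the 25% of members with the shortest gene spans 14.5% fell and 4.09% rose this far, and among the 25% with the longest spans 7.64% fell and 1.26% rose. Long non-coding RNAs were members in 1020 cases, of which 86 fell (8.43%) and 40 rose (3.92%) by 2-fold or more. Of all members 11.3% fell and 2.59% rose this far. Short genes collect fewer reads, and the part of level in these shares was not tested.

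How far a gene can fall on the log2(value + 1) scale is set by its level in Col-0, so the deepest falls had to be in genes abundant there. Of the genes with deep falls given here, AT1G31690, AT4G33720, CYP707A2 and PPT2 passed the limit of 10 through Col-0 alone. AT1G31690, annotated as a copper amine oxidase, stood at 2 and 0 normalised counts in ada2b, against 3284 and 3580 in Col-0. AT4G33720, annotated as a member of the family of pathogenesis-related protein 1, stood at 1 and 0.971 in ada2b and 2011 and 1893 in Col-0. AT4G21650, a subtilase, stood at 11 and 13.6 in ada2b and 1091 and 1175 in Col-0. These genes have no symbol and were picked with their values in view, and each was also low in hag1, where the same genes stood at 7.32 and 8.83, 99.4 and 24.2, and 39.9 and 66.8. Among genes with a symbol and a mean of at least 50, the largest fall was that of FMO GS-OX2 (AT1G62540), an enzyme that oxidises the side chain of glucosinolates, at 5.01 and 10.7 in ada2b and 445 and 567 in Col-0 (log2 fold change -5.90 ± 0.46, adjusted p = 3e-05). CORI3 (AT4G23600), a coronatine-induced cystine lyase, stood at 174 and 154 in ada2b and 5095 and 5601 in Col-0 (-5.02 ± 0.11, adjusted p = 2.83e-07). PCC1 (AT3G22231), a small pathogen- and clock-controlled protein, stood at 34 and 70.3 in ada2b and 2202 and 1758 in Col-0 (-5.30 ± 0.50). CYP707A2, which breaks down abscisic acid, PPT2, a plastid phosphoenolpyruvate translocator, CSLB03, a cellulose synthase-like protein, ARGAH2, an arginase, and EXLB1, an expansin-like protein, had log2 fold changes of -5.80, -5.56, -5.17, -4.84 and -4.80.

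A further 31 members lay under 1 in both ada2b libraries and at 10 or more in both Col-0 libraries. They included PRB1, a basic relative of pathogenesis-related protein 1, at 45.2 and 79.5 in Col-0, and FRO5, a ferric reductase, at 40.1 and 35.3. LTP4, a lipid transfer protein, stood at 39.7 and 71.0 in Col-0 and kept 34.5 and 45.1 in hag1. The reverse pattern was found for 1 gene, AT2G11405, at 25 and 39 in ada2b. Because these genes passed the limit through 1 genotype only, their difference follows from how they were picked.

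The largest rises among members with a symbol and a mean of at least 50 began with DIN2 (AT3G60140), a dark-inducible beta-glucosidase, at 138 and 167 in ada2b and 11.9 and 7.54 in Col-0 (log2 fold change 3.86 ± 0.35, adjusted p = 6.54e-05). DIN10 (AT5G20250), a dark-inducible enzyme of raffinose breakdown, stood at 10568 and 14283 in ada2b and 2645 and 2208 in Col-0 (2.35 ± 0.14). PRXCA (AT3G49110), a cell wall peroxidase, stood at 2790 and 2714 in ada2b, against 404 and 431 in Col-0 (2.72 ± 0.12). The endoglucanase GH9A3 rose by 2.63, BT5, a BTB and TAZ domain protein, by 2.31, TPS8, a protein of the trehalose phosphate synthase family, by 2.28, and the calmodulin-like TCH3 by 2.2. Genes without a symbol were among the largest rises as well. AT2G20670, annotated with a DUF506 domain, stood at 3466 and 4725 in ada2b and 271 and 284 in Col-0 (3.86 ± 0.15), and 2 further genes with this annotation, AT3G07350 and AT4G32480, rose by 3.02 and 2.72. For some of the 20 largest rises the mutant libraries lay far apart. The zinc finger STZ stood at 552 and 1029 in ada2b and 91.1 and 151 in Col-0, SZF1 at 1936 and 3449 in ada2b and 446 and 482 in Col-0, and the defence regulator WRKY40 at 176 and 392 in ada2b and 33.2 and 67.8 in Col-0. In all 3, ada2b replicate 2 was the highest library, and replicate 2 was the higher library in Col-0 as well. That both ada2b libraries lay above both Col-0 libraries was part of the rule that picked these genes.

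By difference in normalised counts, which favours long transcripts, the largest gain was that of NIA2 (AT1G37130), the main nitrate reductase, at 49717 and 53891 in ada2b and 31249 and 31433 in Col-0. NIT1, a nitrilase, ADC2, the arginine decarboxylase of polyamine synthesis, and SAMDC, which makes the donor for spermidine, rose by 0.93, 1.37 and 0.87 on the log2 scale. The largest loss was that of CA1 (AT3G01500), the chloroplast carbonic anhydrase, at 51646 and 50462 in ada2b and 104022 and 101871 in Col-0 (-1.01 ± 0.11, adjusted p = 0.00017). It was followed by the myrosinase TGG1, at 20183 and 22289 in ada2b and 60818 and 57018 in Col-0, and RBCS3B, a rubisco small subunit with near-identical copies whose value is uncertain as a single gene.

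Across lists of genes with known roles, the ethylene list had the highest median and the cold, stomatal and aquaporin lists the lowest. Counts below are of members, and are to be read against the 28.7% of all members that were higher and the 25.3% that were lower.

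**Figure D2:**
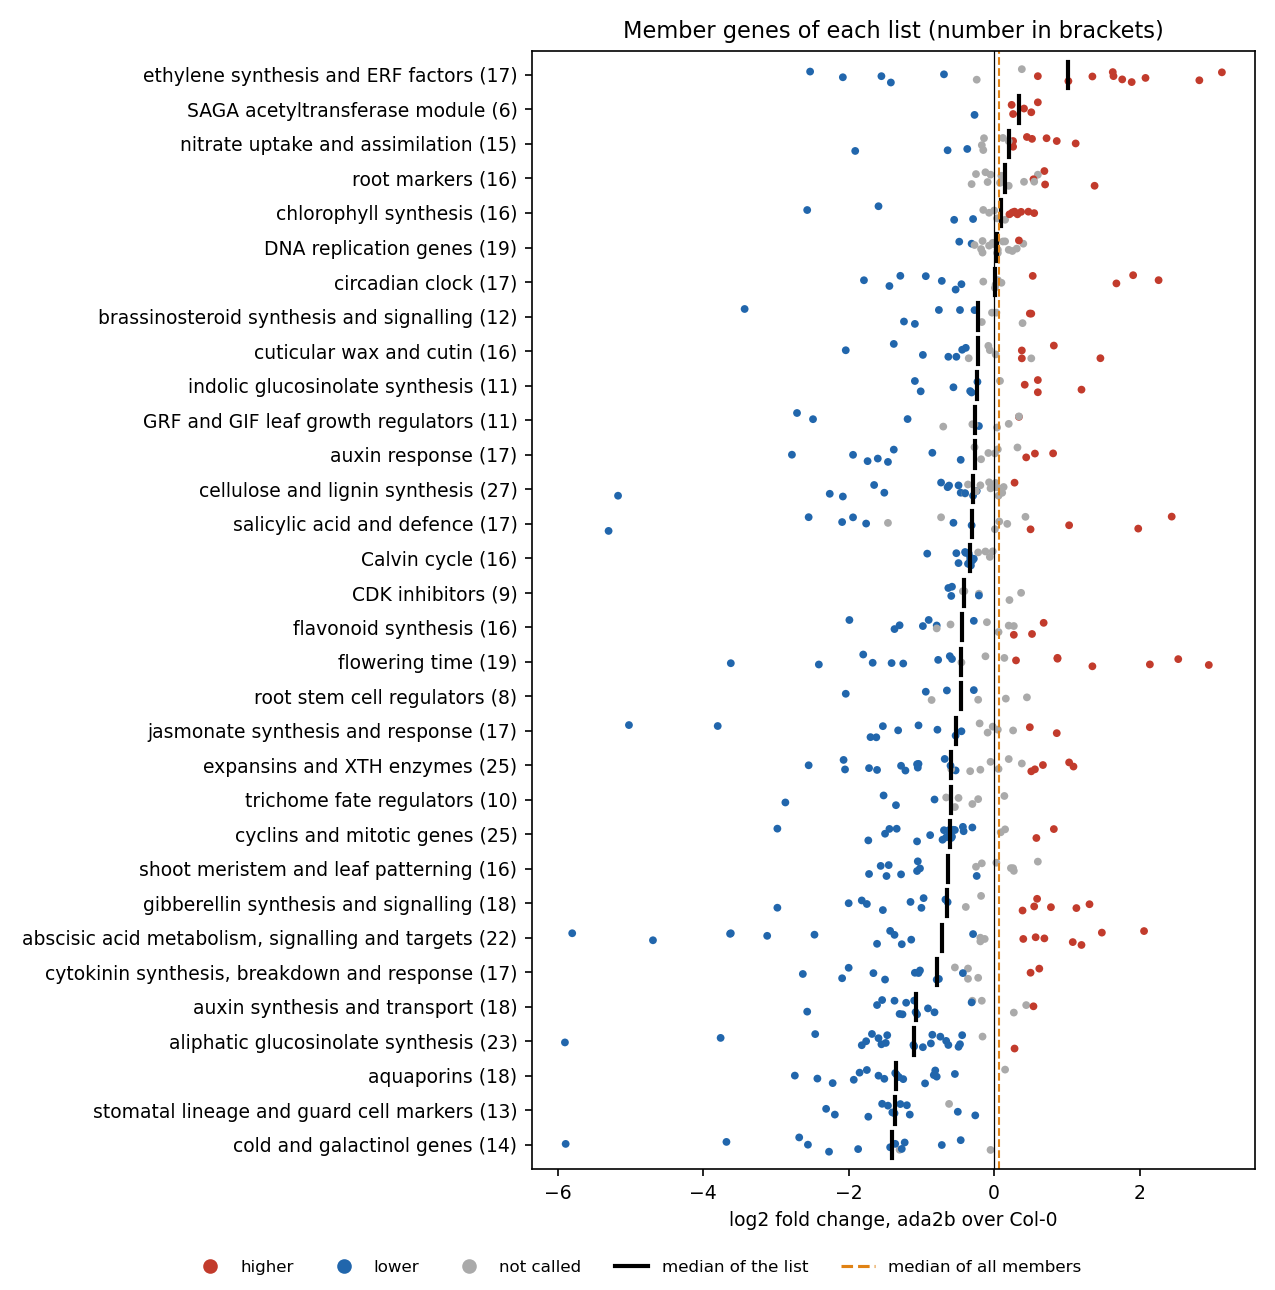
Each point is the log2 fold change of ada2b over Col-0 (x axis) of 1 member gene of the list named on the y axis, with the number of members in brackets. Red, blue and grey points were called higher, lower and neither, black bars are list medians and the dashed line is the median of all members at 0.07; the lists at the bottom, with medians of -1.40 to -1.35, lie almost wholly left of it.

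Genes that drive mitosis and entry into the cell cycle mostly fell, while genes of DNA replication were mostly not called. Of 25 cyclins and mitotic genes 21 were lower, 2 higher and 2 not called, with a median log2 fold change of -0.61. The deepest fall was that of CYCD1;1 (AT1G70210), a D-type cyclin that acts at the start of the cycle, at 77.1 and 96.4 in ada2b and 719 and 661 in Col-0 (-2.98 ± 0.14, adjusted p = 2.87e-06). CYCD3;1, the cyclin through which cytokinin acts on division, stood at 198 and 216 in ada2b, against 591 and 580 in Col-0 (-1.50 ± 0.07, adjusted p = 3.18e-06). The libraries of the 2 genotypes were far apart for both genes. CYCD3;2 and CYCD6;1, which acts in the formative divisions of the root, fell by 1.34 and 1.73. The mitotic kinases CDKB2;1 and CDKB2;2 fell by 0.56 and 0.88, CYCB1;1 and CYCB1;4 by 0.61 each, AUR1, an Aurora kinase, by 0.71, and KN, the syntaxin of the cell plate, by 0.54. CYCD2;1 (AT2G22490) rose, at 815 and 837 in ada2b and 478 and 458 in Col-0 (0.82 ± 0.10, adjusted p = 0.000247), as did CYCA3;2 (0.58 ± 0.08).

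Of 19 replication genes 16 were not called, 2 were lower and 1 was higher, with a median of 0.04, and the 2 became 1 without ada2b replicate 1. The 1 was E2FC, whose call ended without ada2b replicate 2 (adjusted p = 0.0739) or Col-0 replicate 1 (0.065). MCM2 to MCM7, the 6 subunits of the replicative helicase, had log2 fold changes between -0.18 and 0.15, and PCNA1 and PCNA2, the sliding clamps, had -0.16 and 0.05. The licensing factor CDT1A fell, at 232 and 219 in ada2b and 299 and 330 in Col-0 (-0.48 ± 0.09, adjusted p = 0.00264). Of 9 CDK inhibitors 4 were lower and 5 not called, and only 2 were lower when any single library of either genotype was left out. KRP1 fell by 0.59 and SMR1 by 0.58, and KRP2 stood at 224 and 219 in ada2b and 152 and 194 in Col-0 (0.37 ± 0.14, adjusted p = 0.0612).

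**Figure D3:**
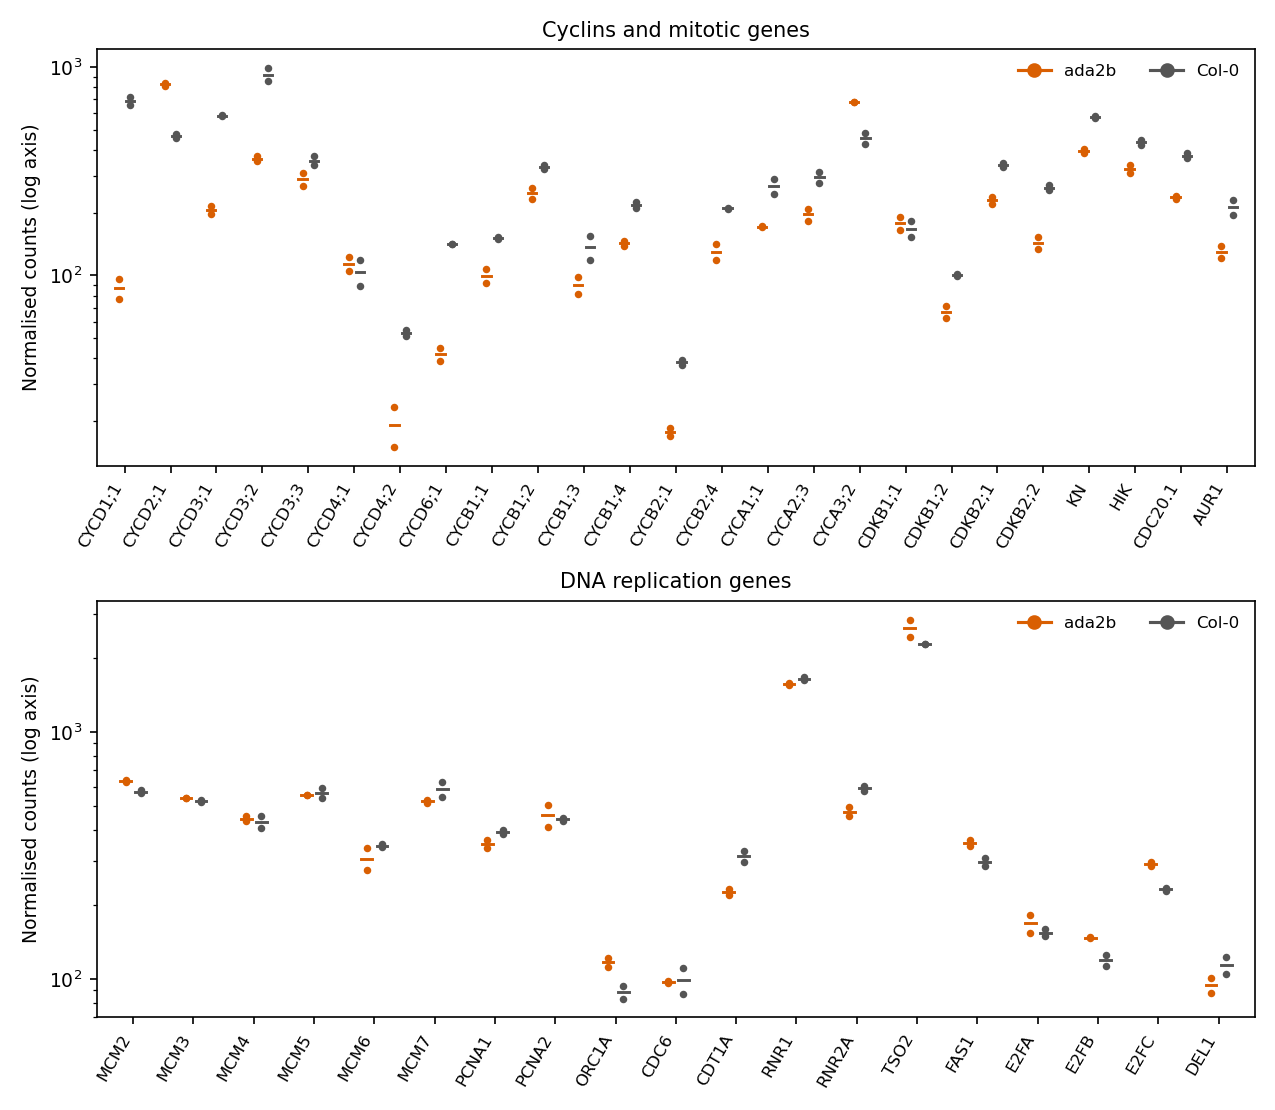
Normalised counts (log axis) of each library for 25 cyclins and mitotic genes (top) and 19 DNA replication genes (bottom), with ada2b in orange and Col-0 in grey and a bar at the mean of the 2 libraries. In the upper panel 21 genes are lower in ada2b, led by CYCD1;1, while in the lower panel the genotypes lie close together.

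Of 11 GRF and GIF leaf growth regulators 4 were lower, 3 of them by at least 2-fold, 1 was higher and 6 were not called, and the 1 became 3 without Col-0 replicate 2. GRF4 (AT3G52910), a growth-regulating factor, stood at 45 and 56.5 in ada2b, against 300 and 276 in Col-0 (-2.49 ± 0.17, adjusted p = 1.7e-05), and GRF9 (AT2G45480) fell by 1.19, whereas GRF3 (AT2G36400) rose slightly (0.34 ± 0.08, adjusted p = 0.00646). GRF7 (AT5G53660) stood at 6 and 0.945 in ada2b and 22.8 and 23.5 in Col-0. GIF1, the coactivator that GRF proteins bind, stood at 169 and 177 in ada2b and 206 and 211 in Col-0 and was not called (adjusted p = 0.051). Of 16 genes of shoot meristem and leaf patterning 9 were lower and 7 not called (median -0.64). Of the 8 CIN-type TCP factors, which end cell division in growing leaves, 6 were lower and 2 not called. TCP4 (AT3G15030) stood at 712 and 592 in ada2b and 2053 and 2248 in Col-0 (-1.72 ± 0.10, adjusted p = 7.28e-06), and TCP3, TCP10 and TCP2 fell by 1.48, 1.45 and 1.06. TCP17 fell by 1.56. TCP24 had a log2 fold change of -0.24, and its call ended without ada2b replicate 1 (adjusted p = 0.0662) or Col-0 replicate 1 (0.0734). TCP5 and TCP13 had log2 fold changes of 0.27 and -0.17 and were not called. CLV1, the receptor kinase of the meristem, stood at 656 and 594 in ada2b and 1255 and 1339 in Col-0 (-1.05 ± 0.07), and AS1, a repressor of meristem genes in leaves, fell by 1.02. The meristem genes STM and KNAT1 were not called, at 30 and 30.2 and at 209 and 190 in ada2b, against 22.1 and 39.2 and 149 and 185 in Col-0. In the root stem cell list 4 of 8 members were lower, among them SHR (-0.65 ± 0.09) and the quiescent-centre factor WOX5, at 3 and 3.90 in ada2b and 17.4 and 17.1 in Col-0.

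Stomatal genes mostly fell. Of 13 genes of the lineage and of guard cells 12 were lower, 10 of them by at least 2-fold, and the median was -1.37. SPCH (AT5G53210), the factor that starts the lineage, stood at 60.1 and 74.0 in ada2b and 168 and 189 in Col-0 (-1.40 ± 0.20, adjusted p = 0.000639). FAMA (AT3G24140), a factor of guard cell formation, stood at 160 and 161 in ada2b and 441 and 499 in Col-0 (-1.54 ± 0.13, adjusted p = 3.95e-05). KAT1 (AT5G46240), a potassium channel of mature guard cells, stood at 156 and 199 in ada2b, against 961 and 798 in Col-0 (-2.31 ± 0.13, adjusted p = 6.82e-06). All 3 were lower in both mutant libraries. The receptor-like TMM, the polarity proteins BASL and POLAR, the peptide EPF2 and the protease SDD1 fell by 1.2, 1.73, 2.19, 1.16 and 1.37. MUTE, which acts between SPCH and FAMA, stood at 21 and 26.3 in ada2b and 38 and 35.2 in Col-0 and was not called (-0.62 ± 0.27, adjusted p = 0.0867). SCRM, a partner of these factors, and MYB60, a guard cell factor, fell by 0.26 and 0.50. The call of SCRM ended without ada2b replicate 2 (adjusted p = 0.0703) or Col-0 replicate 1 (0.084), and that of MYB60 without ada2b replicate 1 (0.136) or Col-0 replicate 1 (0.097). Summed over the 13 genes the level was 1871 and 1932 in ada2b and 4014 and 3872 in Col-0. In whole seedlings fewer cells of a type and less RNA per cell cannot be told apart. Among 10 regulators of trichome fate, 4 fell, namely EGL3, MYB23, TRY and ETC1 (by 1.35, 0.82, 1.52 and 2.87). Of these, TRY and ETC1 passed the limit of 10 through Col-0 alone and so had to be lower. The other 6 were not called, including the trichome initiator GL1 (-0.49 ± 0.30).

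Aquaporins, the water channels of plant membranes, fell almost without exception. Of 18 members 17 were lower, 12 of them by at least 2-fold, with a median of -1.35, and the same count of 17 was found when any 1 library of the 2 genotypes was left out. Among the channels of the vacuolar membrane, TIP2;2 (AT4G17340) stood at 479 and 448 in ada2b and 3229 and 2962 in Col-0 (-2.74 ± 0.11, adjusted p = 1.97e-06), TIP1;1 (AT2G36830) at 3935 and 3919 in ada2b and 14373 and 14001 in Col-0 (-1.85 ± 0.05, adjusted p = 4.91e-07), and TIP2;1 fell by 2.22. The channels of the plasma membrane spanned a wider range. PIP2;8 stood at 166 and 158 in ada2b, against 611 and 629 in Col-0 (-1.93 ± 0.13), PIP2;1 and PIP2;7 fell by 1.25 and 1.31, and PIP1;1, PIP1;2 and PIP1;5 by 0.81, 0.83 and 0.54. PIP2;6 was the exception, at 8145 and 8636 in ada2b and 7893 and 7281 in Col-0 (0.15 ± 0.06, adjusted p = 0.0678), and was called higher without Col-0 replicate 1. The PIP genes are close relatives, and reads of 50 bases can be shared among them and single values are uncertain for that reason.

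Genes of the cell wall were lower more often than higher. Of 25 expansins and xyloglucan enzymes 13 were lower and 5 higher (median -0.59), and the 5 became 3 without ada2b replicate 2. EXPA8 (AT2G40610) stood at 522 and 661 in ada2b and 2578 and 2308 in Col-0 (-2.05 ± 0.17, adjusted p = 3.92e-05), and EXPA11, EXPA5 and EXPA6 fell by 1.72, 1.28 and 1.05. EXPA1 (AT1G69530) went the other way, at 13210 and 13803 in ada2b and 6620 and 6617 in Col-0 (1.03 ± 0.06, adjusted p = 5.02e-06). XTH17 and XTH16 fell by 2.55 and 1.61, whereas XTH27 and XTH30 rose by 0.51 and 0.67. Among 27 genes of cellulose and lignin synthesis 13 were lower, 1 was higher and 13 were not called. The 1 was C4H, whose call ended without ada2b replicate 1 (adjusted p = 0.0973) or Col-0 replicate 1 (0.0657). Those of the lignin branch included FAH1 (AT4G36220), ferulate 5-hydroxylase, at 581 and 579 in ada2b and 2487 and 2407 in Col-0 (-2.08 ± 0.06, adjusted p = 4.7e-07), CAD5 (-1.65 ± 0.09) and 4CL1 (-1.51 ± 0.07). PAL1 and PAL2, which feed the whole phenylpropanoid pathway, were not called (0.13 ± 0.08 and 0.10 ± 0.09). In the wax and cutin list 7 of 16 members were lower and 4 higher. The 4 were CER6, KCS1 and KCS20, condensing enzymes of very long fatty acids, and CER3, and CER6 (AT1G68530) stood at 17364 and 17510 in ada2b and 6416 and 6268 in Col-0 (1.46 ± 0.06, adjusted p = 2.54e-06). GPAT8, an acyltransferase of cutin synthesis, fell by 1.38, and WSD1, a wax ester synthase, by 2.04.

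Auxin carriers and synthesis genes mostly fell. Of 18 members of this list 13 were lower and 1 was higher, with a median of -1.07. The 1 was YUC8 (0.54 ± 0.19, adjusted p = 0.0462), whose call ended without any of the 4 libraries (adjusted p = 0.0976 and 0.156 without ada2b replicates 1 and 2, 0.17 and 0.0912 without Col-0 replicates 1 and 2). The influx carrier LAX1 (AT5G01240) stood at 210 and 294 in ada2b, against 1496 and 1463 in Col-0 (-2.57 ± 0.15, adjusted p = 7.43e-06), and LAX2, LAX3 and AUX1 fell by 1.61, 1.37 and 1.08. Of the efflux carriers, PIN4 and PIN7 fell by 1.10 and 0.82, and the root carrier PIN2 was not called, at 235 and 277 in ada2b and 265 and 311 in Col-0. TAA1, which makes the precursor indole pyruvate, fell by 0.91, and YUC2, YUC3, YUC6 and YUC9, which convert it to auxin, fell by 1.30, 1.21, 1.26 and 1.06. YUC4 and YUC5 were not called. Auxin-induced genes were less uniform, with 8 of 17 lower and 3 higher (median -0.27), and the 3 became 1 without ada2b replicate 2. The Aux/IAA repressors IAA14, IAA19 and IAA7 fell by 1.38, 1.46 and 0.85, and IAA2 rose by 0.81 ± 0.11.

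Cytokinin genes fell in 11 of 17 cases and rose in 2 (median -0.79), and the 2 became 1 without ada2b replicate 1 or Col-0 replicate 1. The response regulators ARR4, ARR9, ARR7 and ARR8, which are induced by the hormone and dampen its signal, fell by 1.02, 1.04, 0.79 and 0.76, while ARR5 and ARR6 were not called (-0.22 ± 0.15 and -0.36 ± 0.15). CKX4 (AT4G29740), a cytokinin oxidase, stood at 38 and 24.2 in ada2b and 197 and 189 in Col-0 (-2.63 ± 0.22, adjusted p = 4.25e-05), and CKX7 fell by 1.66, whereas CKX5 rose by 0.62 ± 0.11. IPT7, a synthesis gene, stood at 8.01 and 11.7 in ada2b and 38.2 and 45.8 in Col-0.

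In the gibberellin pathway the repressors fell and the receptors rose. All 5 DELLA genes, which encode the repressors of gibberellin response, were lower. GAI (AT1G14920) stood at 511 and 487 in ada2b and 1743 and 1624 in Col-0 (-1.75 ± 0.09, adjusted p = 5.11e-06), RGL1, RGL2 and RGL3 fell by 1.53, 2.0 and 2.98, and RGA by 0.67. The receptors GID1A, GID1B and GID1C rose by 0.59, 0.55 and 0.39, and GA3OX1 (AT1G15550), which makes the active hormone, stood at 306 and 330 in ada2b, against 120 and 136 in Col-0 (1.31 ± 0.12, adjusted p = 7.14e-05). The induced genes GASA4 and GASA6 fell by 1.15 and 0.97. Of 12 brassinosteroid genes 6 were lower and 2 higher, and the 2 became 1 without ada2b replicate 2 or either Col-0 library. The synthesis genes DWF4 and BR6OX2 fell by 1.09 and 1.24, and BR6OX1 (AT5G38970), which catalyses a late step of synthesis, stood at 2 and 2.92 in ada2b and 40.1 and 32.1 in Col-0. BRI1, the receptor, stood at 2868 and 3300 in ada2b and 3152 and 3149 in Col-0 and was not called (-0.03 ± 0.07).

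The ethylene list was the one with the highest median, at 1.02, with 10 of 17 members higher and 5 lower. The synthesis genes were split by isoform. ACS7 (AT4G26200) stood at 212 and 202 in ada2b and 23.1 and 35.0 in Col-0 (2.82 ± 0.27, adjusted p = 8.38e-05). ACS2, ACS4 and ACO1 fell by 1.55, 2.53 and 2.08, and ACS2 and ACS4 passed the limit of 10 through Col-0 alone. The response factor ERF105 (AT5G51190) stood at 229 and 566 in ada2b, against 31.9 and 50.9 in Col-0 (3.13 ± 0.54, adjusted p = 0.00182), and ERF2 and ERF5 rose by 1.64 and 1.63. As with STZ and WRKY40, ada2b replicate 2 was the higher mutant library for these ERF genes. For ERF105 replicate 2 was also the higher library in Col-0. EBF2, an F-box protein that limits ethylene signalling, rose by 0.60 with close replicates.

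The 3 abscisic acid receptor genes of the list rose, and 4 of its 6 member phosphatases, which such receptors inhibit, were lower. PYL5 (AT5G05440) stood at 1361 and 1444 in ada2b and 314 and 357 in Col-0 (2.06 ± 0.10, adjusted p = 2.87e-06), and PYL6 and PYL4 rose by 1.08 and 0.69. Of the phosphatases, PP2CA (AT3G11410) stood at 463 and 497 in ada2b and 1316 and 1645 in Col-0 (-1.61 ± 0.18, adjusted p = 0.000209), and HAI1 and ABI2 fell by 3.12 and 1.27. HAI2 stood at 8.01 and 6.80 in ada2b and 81.2 and 127 in Col-0 and passed the limit of 10 through Col-0 alone. ABI1 was not called (-0.19 ± 0.07, adjusted p = 0.0541), and HAB1 rose by 0.40. Synthesis and breakdown genes were mixed. NCED3, the gene of the limiting synthesis step, stood at 55.1 and 47.6 in ada2b and 107 and 122 in Col-0 (-1.14 ± 0.20), and the hydroxylases CYP707A1 and CYP707A4 fell by 1.43 and 2.47 beside CYP707A2. CYP707A2 and CYP707A4 passed the limit of 10 through Col-0 alone. AAO3, which makes the last step of synthesis, rose, at 874 and 890 in ada2b and 625 and 568 in Col-0 (0.57 ± 0.06, adjusted p = 0.00021). CYP707A3 stood at 87.1 and 222 in ada2b and 52.5 and 68.1 in Col-0 (1.2 ± 0.43, adjusted p = 0.0458), a call that ended without ada2b replicate 2 (adjusted p = 0.29), Col-0 replicate 1 (0.16) or Col-0 replicate 2 (0.0682). The response gene RD20, a caleosin, stood at 12 and 6.78 in ada2b and 240 and 279 in Col-0 (-4.69 ± 0.39), while the NAC factor RD26 rose by 1.48 ± 0.16. In the whole list 12 of 22 members were lower and 7 higher.

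Jasmonate genes were lower in 10 of 17 cases and higher in 2. VSP2 (AT5G24770), a vegetative storage protein induced by the hormone, stood at 173 and 97.0 in ada2b and 1468 and 2240 in Col-0 (-3.80 ± 0.47, adjusted p = 0.000328). The lipoxygenases LOX2 and LOX3 fell by 1.04 and 1.32, the feedback repressor JAZ10 had a log2 fold change of -1.70, whereas AOS and the regulator MYC2 were not called (0.05 ± 0.16 and -0.20 ± 0.23). In the salicylic acid and defence list 7 of 17 members were lower and 4 higher, and the 7 became 4 without ada2b replicate 1. PR5 and PAD3, the last enzyme of camalexin synthesis, fell by 2.55 and 1.76, and WRKY33, which activates PAD3, rose, at 1037 and 1745 in ada2b and 329 and 354 in Col-0 (1.98 ± 0.25, adjusted p = 0.000346).

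Cold and galactinol genes had the lowest median of the lists, at -1.40, with 12 of 14 members lower, none higher and the same 12 called in number with any 1 library left out. CBF factors activate many of these genes by binding CCGAC, the core of the C-repeat, and in biochemical work CBF1 is known to bind ADA2 proteins of Arabidopsis. The promoters of 3 of the genes are shown because they carry this core. Each is the 250 bases before the annotated gene start in RefSeq's TAIR10.1 genome, read 5′ to 3′ on the strand of the gene, with CCGAC or its reverse complement GTCGG in capitals. COR15A (AT2G42540) lies on the minus strand at chr2:17712331-17712580, LTI78 (AT5G52310, also called RD29A) on the plus strand at chr5:21240467-21240716, and GOLS2 (AT1G56600) on the plus strand at chr1:21207287-21207536.
COR15A: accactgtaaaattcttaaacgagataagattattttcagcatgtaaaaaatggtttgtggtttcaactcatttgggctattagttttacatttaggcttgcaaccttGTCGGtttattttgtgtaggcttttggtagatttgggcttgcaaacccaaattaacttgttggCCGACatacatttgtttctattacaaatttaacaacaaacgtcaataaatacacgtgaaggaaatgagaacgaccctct
LTI78: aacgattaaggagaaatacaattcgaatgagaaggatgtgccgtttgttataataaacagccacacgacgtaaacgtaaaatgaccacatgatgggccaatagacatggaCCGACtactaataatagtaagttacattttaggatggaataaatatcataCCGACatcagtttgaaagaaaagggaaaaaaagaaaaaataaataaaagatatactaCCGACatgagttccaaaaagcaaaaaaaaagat
GOLS2: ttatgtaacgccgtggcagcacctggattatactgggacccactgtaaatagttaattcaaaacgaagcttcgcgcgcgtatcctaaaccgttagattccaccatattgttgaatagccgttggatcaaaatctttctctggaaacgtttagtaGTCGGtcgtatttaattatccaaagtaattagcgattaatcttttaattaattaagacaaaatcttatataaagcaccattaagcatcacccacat

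The core occurred at 142 and 79 bases before the start of COR15A, at 140, 90 and 33 bases before that of LTI78 and at 96 bases before that of GOLS2. COR15A, which protects chloroplast membranes, stood at 473 and 406 in ada2b, against 5229 and 6024 in Col-0 (-3.68 ± 0.31, adjusted p = 4.25e-05). LTI78 stood at 1425 and 1233 in ada2b and 3197 and 3041 in Col-0 (-1.23 ± 0.13, adjusted p = 0.000139). GOLS2, a galactinol synthase on the way to raffinose, stood at 15 and 2.85 in ada2b and 441 and 489 in Col-0 (-5.89 ± 0.69, adjusted p = 0.000244). COR47, ERD10 and KIN1 fell by 1.36, 1.43 and 2.27, and the galactinol synthase GOLS1 was not called (-0.05 ± 0.13). CBF1 and CBF2 were no members, and CBF3 stood at 6.01 and 13.7 in ada2b and 28.1 and 20.4 in Col-0 and was not called (-1.30 ± 0.58, adjusted p = 0.0968). COR15A and COR15B, and KIN1 and COR6.6, are near-identical pairs whose reads may be shared.

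Promoter motifs were counted over all members, in the window from 250 bases before to 50 after the gene start on both strands. CCGAC was found in 5 of 14 cold and galactinol genes (35.7%), in 13.9% of members that fell and 15.2% of those that rose by 2-fold or more, and in 15.9% of all members. ACGTG, the core of the abscisic acid response element, was found in 30.0% of members that fell, 29.7% of those that rose and 27.0% of all members. AAACCCTAA, the telo-box of ribosomal and growth genes, was found in 1.44% of those that fell, 2.51% of those that rose and 3.18% of all members, and CGCGT, the core bound by calmodulin-binding CAMTA factors, in 6.82, 12.0 and 9.31%. TTGACC, a W-box form bound by WRKY factors, was found in 13.3, 19.2 and 14.2%. TATAAA was found in 55.9, 56.1 and 50.0%. These shares are descriptions, and CACGTG matches are contained in those of ACGTG.

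Aliphatic glucosinolate genes, which make the methionine-derived defence compounds of the crucifers, fell in 21 of 23 cases, with a median of -1.10. Their regulators MYB28 (AT5G61420) and MYB76 (AT5G07700) stood at 792 and 775 and at 4 and 5.85 in ada2b, against 2653 and 2393 and 74.1 and 83.1 in Col-0 (log2 fold change of MYB28 -1.68 ± 0.07), and MYB29 fell by 1.59. The chain-elongation enzyme MAM1 and the core enzyme CYP83A1 fell by 1.82 and 1.55, and the late sulfotransferases SOT17 and SOT18 by 0.47 and 0.44. CYP79F2 was not called (-0.16 ± 0.06) and FMO GS-OX5 rose (0.28 ± 0.06, adjusted p = 0.00786), in contrast to FMO GS-OX2. In the tryptophan-derived branch 6 of 11 members were lower and 4 higher, and the 6 became 3 without ada2b replicate 2. MYB51 rose, at 254 and 405 in ada2b and 139 and 140 in Col-0 (1.2 ± 0.21, adjusted p = 0.00183), while its relative MYB34 fell by 1.09. TGG2, a myrosinase that splits glucosinolates, stood at 1022 and 1066 in ada2b and 18823 and 17011 in Col-0 (-4.10 ± 0.10, adjusted p = 2.83e-07), and the myrosinase-binding proteins MBP1 and MBP2 fell by 4.58 and 4.23.

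Photosynthetic carbon fixation genes fell modestly. Of 16 Calvin cycle genes 12 were lower, none was higher and the median was -0.33. PRK, phosphoribulokinase, stood at 28264 and 27741 in ada2b and 40174 and 39880 in Col-0 (-0.52 ± 0.07, adjusted p = 0.000586), and CP12-2, a regulator that holds PRK inactive in the dark, fell by 0.92. Genes of chlorophyll synthesis did not share this direction, with 7 of 16 higher and 4 lower, although the 7 became 1 without ada2b replicate 2 and 2 without Col-0 replicate 2. HEMA1, the entry step, rose by 0.55 ± 0.09, and PORC fell by 0.55 ± 0.06. The chloroplast regulator GLK1 (AT2G20570) stood at 1633 and 1479 in ada2b and 4398 and 4997 in Col-0 (-1.59 ± 0.12, adjusted p = 2.25e-05), while GLK2 rose by 0.47 ± 0.11, a call that ended without ada2b replicate 2 (adjusted p = 0.054). In the nitrate list 7 of 15 members were higher and 3 lower, and the 3 became 5 under median-ratio scaling. Beside NIA2, the asparagine synthetases ASN1 and ASN2 rose by 1.12 and 0.86, and the uptake carrier NRT2.1 stood at 72.1 and 74.0 in ada2b, against 234 and 327 in Col-0 (-1.91 ± 0.19, adjusted p = 0.000108). Flavonoid genes were divided, with 3 of 16 higher and 7 lower, and the 7 became 2 without ada2b replicate 2 or Col-0 replicate 2. F3H and FLS1, on the way to flavonols, rose by 0.68 and 0.52.

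Several floral repressors rose and several floral promoters fell. FLC (AT5G10140), the MADS-box repressor of flowering, stood at 236 and 261 in ada2b and 32.6 and 29.9 in Col-0 (2.95 ± 0.28, adjusted p = 7.8e-05). The repressors TEM1 (AT1G25560) and TEM2 (AT1G68840) stood at 2161 and 2710 and at 3006 and 3959 in ada2b, against 479 and 630 and 601 and 591 in Col-0 (2.14 ± 0.20 and 2.53 ± 0.17). SVP, a repressor as well, went the other way and fell by 0.61 ± 0.11, and MAF2 and MAF3, relatives of FLC, were not called (0.14 and -0.12). Of the promoters, SOC1 (AT2G45660) stood at 208 and 198 in ada2b and 521 and 561 in Col-0 (-1.41 ± 0.13, adjusted p = 6.93e-05), and SPL3, SPL5 and SPL9, factors of the adult phase, had log2 fold changes of -2.41, -1.67 and -1.80. CO, the activator of FT, stood at 65.1 and 50.5 in ada2b and 83.6 and 73.7 in Col-0 and was not called (adjusted p = 0.063). FT, the mobile flowering signal, stood at 20 and 25.3 in ada2b and 54.4 and 55.5 in Col-0 (-1.25 ± 0.34, adjusted p = 0.0165), a call that ended without ada2b replicate 1 (adjusted p = 0.087), Col-0 replicate 1 (0.053) or Col-0 replicate 2 (0.0568). In the whole list 7 of 19 members were higher and 9 lower, and the 7 became 4 without ada2b replicate 1 or either Col-0 library.

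Among clock genes 4 of 17 were higher, 7 lower and 6 not called, with a median of 0.01. The morning genes LHY (AT1G01060), RVE1 and RVE8 rose. LHY stood at 236 and 267 in ada2b and 51.1 and 52.3 in Col-0 (2.26 ± 0.12, adjusted p = 4.65e-06), and RVE1 and RVE8 rose by 1.91 and 1.68, but CCA1, the close relative of LHY, was not called (39 and 43.8 in ada2b, 50.8 and 33.3 in Col-0). Of the evening genes, GI (AT1G22770) stood at 123 and 117 in ada2b and 537 and 325 in Col-0 (-1.79 ± 0.20, adjusted p = 0.000182), FKF1 (AT1G68050), the blue light receptor that acts with GI, at 293 and 288 in ada2b and 738 and 687 in Col-0 (-1.29 ± 0.09, adjusted p = 1.74e-05), and LUX fell by 0.94. PRR5 was called higher, with log2 fold changes of 0.43 to 0.63 under the alternatives run, and the genes not called included ELF3 and ZTL. The hour of harvest is not given in the labels, and each library is 1 point of a daily cycle. LHY and its relatives bind AAAATATCT, the evening element, which was found in 5 of 17 clock genes (29.4%), in 3.90% of members that fell by 2-fold or more and in 2.85% of all members. The promoter of FKF1 is shown as an example, with the reverse complement of the element in capitals at 186 bases before the start. It lies on the plus strand at chr1:25508389-25508638 of TAIR10.1, likewise the 250 bases before the annotated start.
FKF1: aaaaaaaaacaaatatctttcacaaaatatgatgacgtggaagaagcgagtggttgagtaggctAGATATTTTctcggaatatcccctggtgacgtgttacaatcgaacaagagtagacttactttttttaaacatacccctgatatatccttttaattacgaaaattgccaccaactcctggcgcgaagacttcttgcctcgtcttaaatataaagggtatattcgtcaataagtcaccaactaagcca

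**Figure D4:**
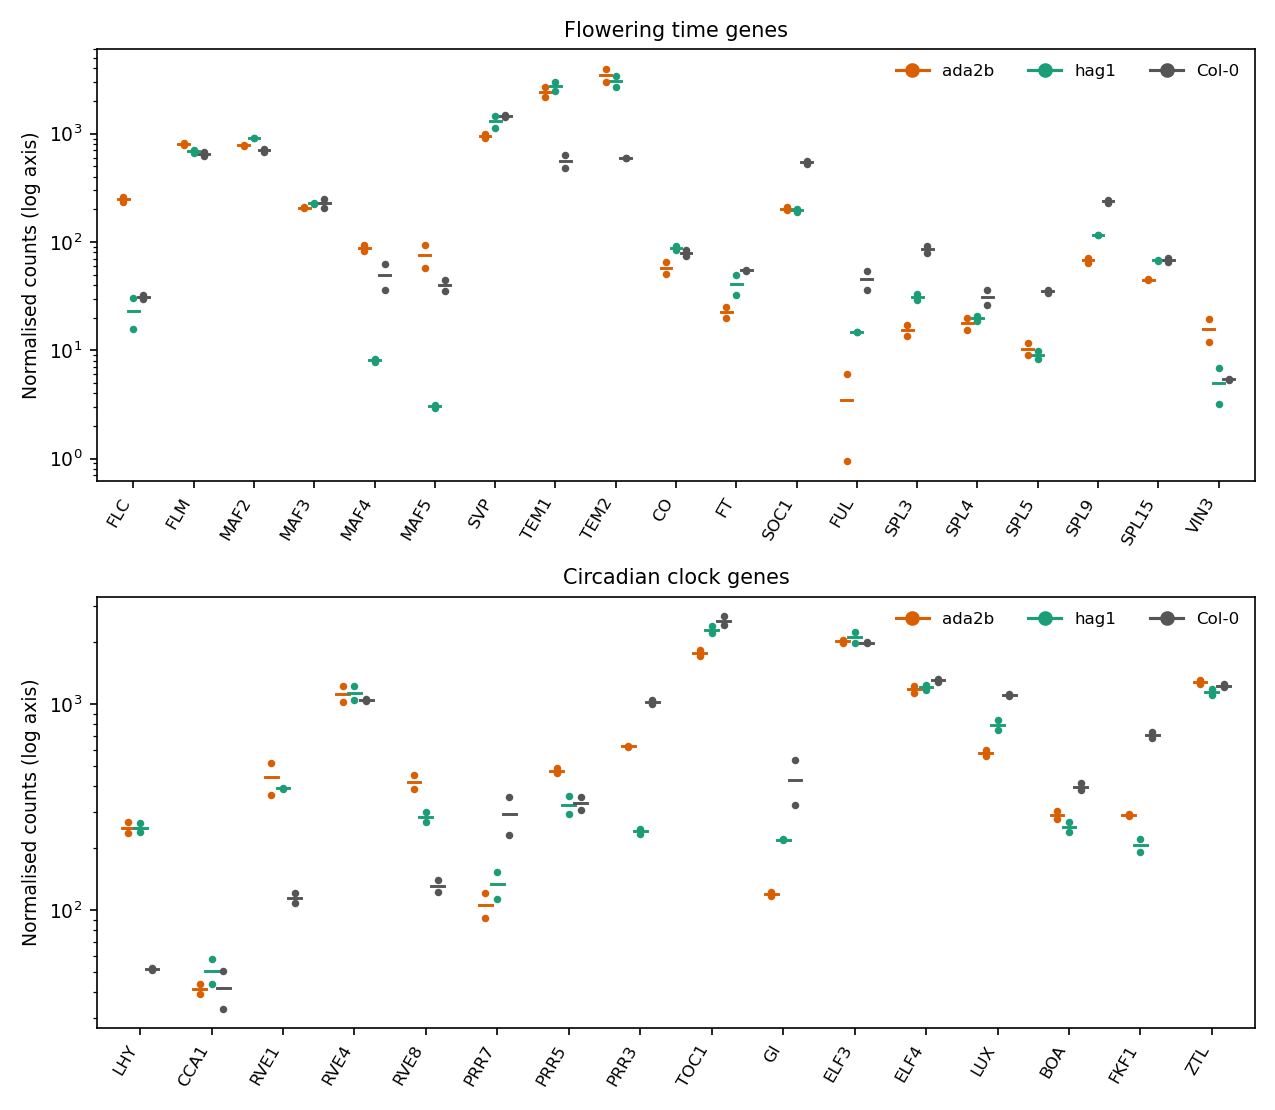
Normalised counts (log axis) of each library for 19 flowering time genes (top) and 16 of the 17 circadian clock genes (bottom, where AT5G52660, not called, is left out), with ada2b in orange, hag1 in green and Col-0 in grey and a bar at the mean of the 2 libraries. FLC lies higher in ada2b than in hag1 or Col-0, TEM1, TEM2 and LHY are high in both mutants, and MAF4 and MAF5 are lowest in hag1.

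To ask where ada2b seedlings differ from seedlings mutant for the acetyltransferase itself, ada2b was compared directly with hag1 in the same fit. Of the 21571 members 5439 were higher in ada2b (25.2%) and 4878 lower (22.6%), and with a change of at least 2-fold 591 were higher (2.74%) and 1548 lower (7.18%). HAG1 stood at 394 and 436 in ada2b and 131 and 133 in hag1. FLC, at 236 and 261 in ada2b, stood at 30.1 and 15.6 in hag1 (log2 difference 3.45 ± 0.28, adjusted p = 5.79e-05). Its relatives MAF5 and MAF4 stood at 94.1 and 57.2 and at 83.1 and 93.5 in ada2b, against 3.13 and 2.94 and 8.34 and 7.84 in hag1 (4.21 ± 0.29 and 3.29 ± 0.27). Against Col-0, MAF4 and MAF5 rose by 0.87 each, and both calls ended without ada2b replicate 1 (adjusted p = 0.0679 and 0.233) or Col-0 replicate 1 (0.166 and 0.0585). The call of MAF4 also ended without ada2b replicate 2 (adjusted p = 0.119), and that of MAF5 without Col-0 replicate 2 (0.163). The cold gene COR15B was higher in ada2b as well, at 1012 and 1190 against 226 and 254 in hag1 (2.19 ± 0.20), and so was the expansin EXPA1, at 13210 and 13803 against 4364 and 4542 in hag1 (1.60 ± 0.06). Both were exceptions, since 2 of 14 cold and galactinol genes were higher and 6 lower in ada2b than in hag1, and 1 of 25 expansins and xyloglucan enzymes was higher and 12 were lower.

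Mitotic genes were lower in ada2b than in hag1 in 18 of 25 cases and higher in 3, with a median of -0.82. CDC20.1, an activator of the anaphase-promoting complex, stood at 241 and 233 in ada2b and 508 and 522 in hag1 (-1.12 ± 0.07, adjusted p = 2.54e-05). Flavonoid genes were lower in ada2b in 14 of 16 cases and higher in none, and the anthocyanin enzymes DFR and LDOX stood at 180 and 151 and at 162 and 144 in ada2b, against 584 and 904 and 575 and 785 in hag1. Salicylic acid and defence genes were lower in 10 of 17 cases, with PR5 at 22 and 25.3 in ada2b and 242 and 167 in hag1 (-3.04 ± 0.24, adjusted p = 5.56e-05). Of the aquaporins 13 of 18, and of the stomatal genes 7 of 13, were lower in ada2b than in hag1. KAT1 stood at 156 and 199 in ada2b and 443 and 509 in hag1 (-1.43 ± 0.13, adjusted p = 0.000109). FAH1 fell to 581 and 579 in ada2b, against 2020 and 1904 in hag1 (-1.76 ± 0.06), whereas GOLS2 and FMO GS-OX2, which are low in both mutants, were lower still in ada2b (-2.0 and -1.75).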

How the data were processed

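Total RNA from whole seedlings was sequenced in single-end reads of 50 bases on BGISEQ500, per the labels' protocols. The authors deposited 1 table of normalised counts (unit: signal, not whole numbers) for 32548 genes in 8 libraries of 4 genotypes. HISAT2, edgeR and TAIR10 are named in the submitters' processing notes, while versions, counter, annotation, strand use and filters were not stated there. Because the values are not raw counts, no count model was used, and depth in reads is unknown. Values were taken as log2(value + 1), which understates changes of low genes, and fitted with limma 3.58.1 (trend, R 4.3.3) over all 8 libraries for 25459 genes at 1 or more in at least 2 libraries. Residual degrees of freedom were 4. Tests were two-sided, and p-values were adjusted by Benjamini-Hochberg over all fitted genes, with calls at 0.05 and no fold minimum. Adjusted p-values are from this fit, except those given with a library left out, which are from the same model without that library. In simulated data for ada2b against Col-0 with 25384 genes fitted, changes of 0.5, 1 and 2 on the log2 scale were called in 38.8, 86.6 and 98.5% of 67, 67 and 66 genes. Only these genes were changed, all others kept the Col-0 mean, and 1 spread (dispersion 0.0043) served all genes. The rates need not hold in the real data, where 54% of members were called.

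Members were the genes at 10 or more in at least 2 of the 4 ada2b and Col-0 libraries. Members and gene lists were chosen with earlier results of these data known. Named genes were the acetyltransferase module, list members, the 20 largest rises and falls with a symbol and a mean of at least 50, and the 10 largest differences in mean each way. For the 20, both ada2b libraries also had to lie beyond both Col-0 libraries. Genes without a symbol, and those under 1 in 1 genotype, fall outside these rules and were picked with their values in view. Symbols, gene models and promoters came from RefSeq's TAIR10.1. Alternatives were other pseudocounts, scalings, filters and sets of libraries, a replicate block and leaving out each library. Some genes of the lists are counted but not reported here by name.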

Additional observations from a re-analysis of the deposited data

How the results depend on the processing

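The counts of members called higher and lower, and of those changed by 2-fold or more, kept within 1.5 times of their value under all alternatives run, for ada2b against Col-0 and for ada2b against hag1. Leaving out 1 library of either genotype gave 4568 to 4789 members higher and 4473 to 4588 lower in ada2b than in Col-0, and 474 to 564 higher and 2236 to 2329 lower by 2-fold or more. With the replicate block 5944 members were higher and 5336 lower. Over all members the correlation of replicate deviations was -0.062 between ada2b and Col-0 and 0.116 between ada2b and hag1. These values cannot tell whether replicate numbers pair the libraries for some genes. For STZ, WRKY40, SZF1 and ERF105, picked with their values in view, replicate 2 lay above replicate 1 in all 4 genotypes. Scaling moved the split of directions, with 53.2% of called members higher as deposited, 43.4% after median-ratio scaling and 46.0% after upper-quartile scaling.

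Among the genes given by name in the results above, calls ended with no filter on low values for FT, RBCS3B, GLK2, MYB60, GRF7, C4H, CYP707A3, MAF4 and MAF5. They ended in the fit of the 4 libraries compared for ADA2A, YUC8, CYP707A3, MAF4 and MAF5, and with the replicate block for ADA2A and YUC8. Under median-ratio scaling they ended for ADA2A, C4H, YUC8, CYP707A3 and MAF5, under upper-quartile scaling for ADA2A, YUC8 and CYP707A3, and with a pseudocount of 0.1 for CYP707A3. Further genes of the lists and rankings, not named above, lost their calls as well. With no filter on low values these included DIC2, LURP1, PSBR and RBCS2B among the largest changes, and GAPA, GAPB, PGK1 and TKL1 of the Calvin cycle. GIF1, ABI1, ARR6, CYP79F2, MCM6, MCM7, KRP2, CO, PIP2;6, DFR and LDOX were not called, but were called under at least 1 alternative. Some genes that were not called changed sign. Under median-ratio scaling STM, PCNA2, CCA1, AOS, AT5G52660, MCM3 and MCM4 moved to -0.04, -0.03, -0.07, -0.02, -0.02, -0.04 and -0.03, and under upper-quartile scaling to -0.02, -0.01, -0.05, -0.0, -0.0, -0.02 and -0.01. With 1 library left out at a time, log2 fold changes ran from -0.37 to 0.43 for STM, -0.10 to 0.19 for PCNA2, -0.29 to 0.30 for CCA1, -0.14 to 0.05 for GOLS1, -0.14 to 0.07 for BRI1, -0.26 to 0.03 for MAF3, -0.05 to 0.15 for AT5G52660, -0.03 to 0.13 for MCM4, -0.09 to 0.05 for MCM5 and -0.09 to 0.19 for AOS. The cause was not tested. With 2 libraries a genotype, low genes have the widest error.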
